A study of Mus musculus with 9 samples.

Results

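Initially, transcripts of the enzymes that make thromboxane, prostaglandins and leukotrienes were measured in mature megakaryocytes (mMKs) of mouse bone marrow after ionizing radiation (IR). The 10 genes were Pla2g4a, Ptgs1, Ptgs2, Tbxas1, Ptges, Hpgds, Alox12, Alox5, Alox5ap and Ltc4s, 10 of the 37316 genes named on the probes kept after outlier spots were dropped, of which 29411 were tested. They were found by matching the gene names of all probes other than controls, which gave 19 probes, and all 19 passed the filter for signal. These lipids are made from arachidonic acid, which a phospholipase frees from membranes. The cyclooxygenases turn it into the precursor of prostaglandins and thromboxane, and lipoxygenases turn it into hydroxy acids and leukotrienes. Platelets, which mMKs shed, release thromboxane and 12-lipoxygenase products on activation, and they carry over RNA and protein from the mMK.

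The study addressed how a sublethal dose of IR changes the platelets that mMKs produce. RNA was taken from mMKs of male mice that were not irradiated (Ctrl), and from mice 1 day (1 dpi) and 3 days (3 dpi) after a single total-body dose of 5 Gy gamma rays, with 3 arrays in each of the 3 groups. The methods describe the control mice of the work as sham-irradiated. Wild-type C57BL/6 mice are described for the work, while the age of the mice behind the arrays is not given. The cells were enriched from marrow by selection for CD41 and then for CD42d, glycoproteins of the megakaryocyte and platelet surface, and each array came from an independent experiment with different donors.

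Each sample was hybridised to a 1-colour array, on which the Cy3 signal of a spot measures the RNA bound by a probe of 60 bases. The level of a probe is given as its log2 signal minus the 75th percentile of log2 signals on the same array (scaled log2 level). A level of 0 is therefore that percentile and 1 unit is a 2-fold difference. A gene is represented by its brightest probe, and levels of different probes cannot be compared with each other. The image software marks a spot as well above background when its signal clears the local background of that array. Such spots made up between 69.1% and 80.8% in Ctrl, between 72.3% and 75.6% at 1 dpi, and between 81.6% and 81.8% at 3 dpi. The number of arrays limits the precision. Ctrl replicate 1 was the only array on its slide and scan, and the other 8 arrays shared another slide. On that slide Ctrl replicates 2 and 3 lay in row 1 and all 1 dpi arrays in row 2, so row and 1 dpi cannot be told apart there. Of the 3 dpi arrays, replicates 1 and 2 lay in row 1 and replicate 3 in row 2. The log2 75th percentile was 10.62 and 10.66 on Ctrl replicates 2 and 3, and 9.33, 9.45 and 9.43 at 1 dpi. The standard deviation (SD) of gene differences between Ctrl replicate 1 and the other Ctrl arrays was 0.679 and 0.681 in log2 units, against 0.242 between Ctrl replicates 2 and 3. A batch of 1 array gives no comparison of its own, and the comparisons within the other slide are those without Ctrl replicate 1.

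A gene was called when limma, a linear model fitted over all genes, gave a Benjamini-Hochberg adjusted p under 0.05 and the groups differed by at least 2-fold, a log2 fold change of 1. The 3 comparisons were 1 dpi against Ctrl, 3 dpi against Ctrl, and 3 dpi against 1 dpi, and the first 2 share the Ctrl arrays, so they are not independent of each other. An exact permutation test of 3 arrays against 3, two-sided, cannot give a p under 0.1. Groups that do not overlap were common. Over all genes tested this held for 67.5% at 1 dpi, 47.1% at 3 dpi and 65.5% between 3 dpi and 1 dpi. Over all genes, the log2 fold change had a median of 0.25 at 1 dpi, 0.11 at 3 dpi and -0.11 at 3 dpi against 1 dpi, so changes are also given relative to that median. The split of calls between higher and lower depended on the scaling. At 1 dpi 81.1% of called genes were higher, against 56.3% after quantile normalization, 48.9% when the array median was the reference and 54.9% relative to the median of all genes. At 3 dpi against 1 dpi the share called higher was 45.2%, against 62.9%, 67.2% and 58.1% under the same alternatives.

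At 1 dpi, Hpgds was the only called gene of the 10, and at 3 dpi Hpgds and Alox12 were called, all higher than Ctrl. The 1 dpi call of Hpgds depends on which of its probes is used, as described with its levels, and the other probe would leave none of the 10 called at 1 dpi. At 1 dpi 1 of 10 was called higher, beside 12.3% of all genes tested, and 0 of 10 lower, beside 2.87%. At 3 dpi 2 of 10 were called higher, beside 6.98% of all genes, and 0 of 10 lower, beside 1.82%. Between 3 dpi and 1 dpi 0 of 10 were called higher, beside 3.97%, and 0 of 10 lower, beside 4.82%. The count at 1 dpi was near the share of all genes and that at 3 dpi rested on 2 genes, and nothing particular to the list is drawn from them. Without the 2-fold minimum, limma gave an adjusted p under 0.05 for 7 of 10 at 1 dpi (6 higher, 1 lower), 5 of 10 at 3 dpi and 6 of 10 between 3 dpi and 1 dpi, beside 55.9%, 32% and 44.6% of all genes. At an unadjusted p under 0.05 the counts were 6 higher and 2 lower, 5 higher and 0 lower, and 6 higher and 2 lower, of which 1, 2 and 0 differed by at least 2-fold. The median log2 fold change of the 6 cyclooxygenase-branch genes, which here include the phospholipase, was 0.09 at 1 dpi and 0.14 at 3 dpi, and that of the 4 lipoxygenase-branch genes 0.32 and 0.52, beside 0.25 and 0.11 for all genes.

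**Figure D1:**
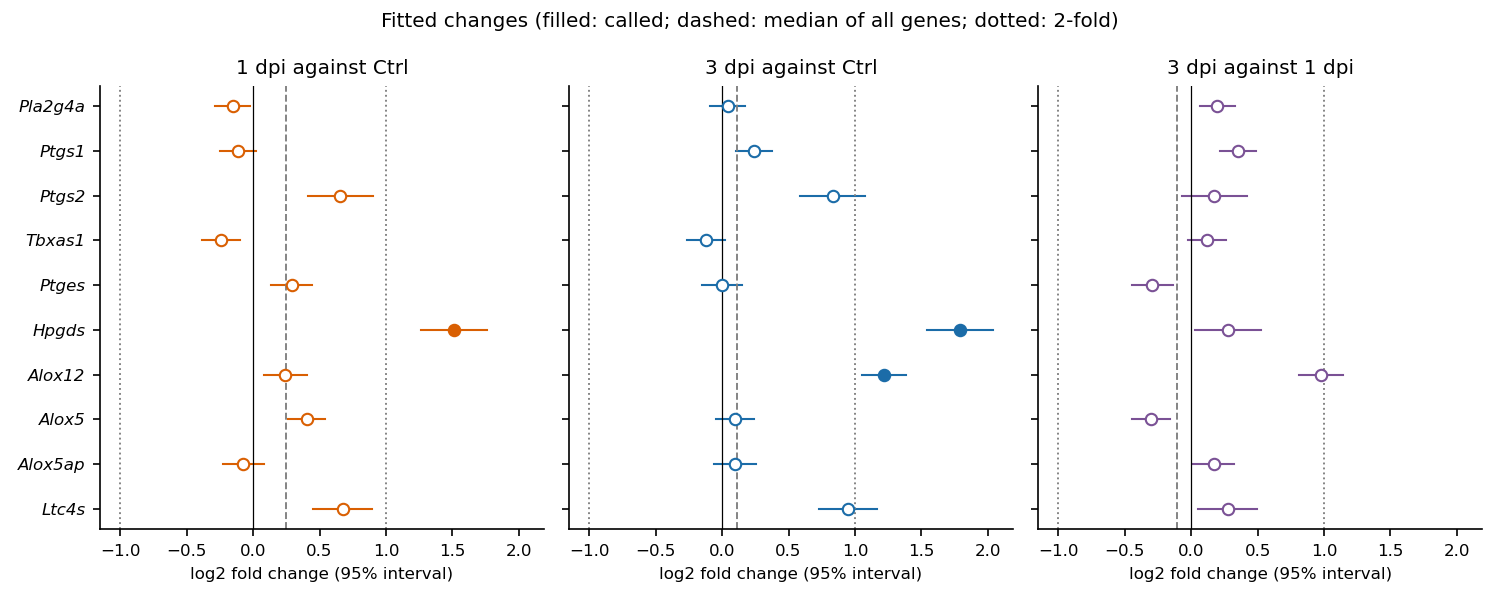
Log2 fold change of the brightest probe of each of the 10 genes in the 3 comparisons, with 95% intervals from limma; filled points were called, dashed lines mark the median of all genes and dotted lines a 2-fold difference. Hpgds is filled at 1 dpi and 3 dpi and Alox12 at 3 dpi.

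Hpgds encodes hematopoietic prostaglandin D synthase, which converts the cyclooxygenase product into prostaglandin D2. Its scaled log2 level was -3.43, -3.36 and -3.67 on the Ctrl arrays, -2.10, -1.93 and -1.89 at 1 dpi, and -1.82, -1.61 and -1.67 at 3 dpi. Every array at 1 dpi and 3 dpi lay above every Ctrl array, and the irradiated groups did not overlap each other. Hpgds was 2.86-fold higher at 1 dpi, a log2 fold change of 1.51 (SE 0.11, 95% interval 1.27 to 1.76, adjusted p 2.72e-05). It was 3.46-fold higher at 3 dpi, a log2 fold change of 1.79 (SE 0.11, 95% interval 1.54 to 2.04, adjusted p 1.18e-05). Relative to the median of all genes these were 1.27 and 1.68. Without Ctrl replicate 1 the log2 fold changes were 1.54 and 1.82. From 1 dpi to 3 dpi the difference was 0.28 with an adjusted p of 0.0675, which was not called.

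These values come from a probe designed on a predicted transcript, at chr6:65080760-65080819 (mm9, minus strand), and the 1 dpi call rested on it alone. It represented Hpgds because its mean over the 9 arrays was higher than that of the other probe, and this came from the 1 dpi arrays: its means were -3.49 in Ctrl, -1.97 at 1 dpi and -1.70 at 3 dpi, against -3.27, -3.15 and -1.61. The level at 1 dpi thus decided the choice of the probe on which 1 dpi was tested, so that call is no independent test. The other probe, on the curated transcript, spans an exon junction at chr6:65070081-65073609 (mm9, minus strand) and had levels of -3.06, -3.47 and -3.27 in Ctrl, -3.14, -3.26 and -3.04 at 1 dpi, and -2.02, -1.35 and -1.45 at 3 dpi. On this probe Ctrl and 1 dpi overlapped, with a log2 fold change of 0.12 (SE 0.18, adjusted p 0.589), while 3 dpi lay above both groups, by 1.66 over Ctrl (adjusted p 0.000323) and by 1.54 over 1 dpi (adjusted p 0.000465). The probes therefore gave like changes at 3 dpi and unlike changes at 1 dpi, and which transcripts each of them bound was not tested. The sequence of the junction probe and the first 30 bases of the other one are shown because the 1 dpi result differs between them, and the window around the start site because Hpgds was called at 3 dpi on both probes. The window was taken from RefSeq, at chr6:65144681-65144980 (GRCm38.p6, minus strand), and is read in the direction of transcription.
Hpgds junction probe: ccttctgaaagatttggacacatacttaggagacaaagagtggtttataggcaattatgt
Hpgds predicted-transcript probe: cttcttttatttcctttcccctaaattttc
Hpgds promoter window: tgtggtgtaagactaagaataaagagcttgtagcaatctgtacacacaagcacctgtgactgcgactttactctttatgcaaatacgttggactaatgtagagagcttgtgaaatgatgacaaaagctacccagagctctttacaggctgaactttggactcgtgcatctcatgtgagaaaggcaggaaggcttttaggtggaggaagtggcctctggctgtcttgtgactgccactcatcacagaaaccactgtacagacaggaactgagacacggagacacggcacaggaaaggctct

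Subsequently, Alox12, which encodes the 12-lipoxygenase of platelets, was examined. Its level was 1.4, 1.31 and 1.26 in Ctrl, 1.66, 1.56 and 1.49 at 1 dpi, and 2.60, 2.55 and 2.49 at 3 dpi. No array of one group reached the range of another. Alox12 was 2.33-fold higher at 3 dpi than in Ctrl, a log2 fold change of 1.22 (SE 0.07, 95% interval 1.05 to 1.38, adjusted p 1.06e-05), and 1.1 relative to the median of all genes. At 1 dpi the log2 fold change was 0.24 (adjusted p 0.0209), under the 2-fold minimum, and it became -0.07 with the array median as the reference and -0.0047 relative to the median of all genes. Between 1 dpi and 3 dpi Alox12 differed 1.96-fold, a log2 fold change of 0.97 (adjusted p 6.12e-05), just short of the 2-fold minimum, and 1.08 relative to the median. That difference was called without 1 dpi replicate 1 (1.02) and without 3 dpi replicate 3 (1.00). The dimmer probe of Alox12 gave 0.41 at 1 dpi (SE 0.17, adjusted p 0.0666), for 3 dpi it gave 1.13 (SE 0.17, adjusted p 0.00142), and between 1 dpi and 3 dpi it gave 0.72 (adjusted p 0.00932), further below the 2-fold minimum. Both probes come from the same transcript and lie at chr11:70055715-70055774 for the brighter and chr11:70063629-70063688 for the dimmer one (mm9, minus strand). The promoter window from RefSeq, shown because Alox12 was called at 3 dpi, lies at chr11:70255321-70255620 (GRCm38.p6, minus strand).
Alox12 promoter window: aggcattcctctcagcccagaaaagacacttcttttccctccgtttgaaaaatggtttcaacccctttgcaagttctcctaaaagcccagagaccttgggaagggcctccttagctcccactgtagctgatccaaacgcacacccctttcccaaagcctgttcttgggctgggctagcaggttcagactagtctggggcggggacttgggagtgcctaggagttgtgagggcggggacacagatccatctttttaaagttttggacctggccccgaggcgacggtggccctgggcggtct

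**Figure D2:**
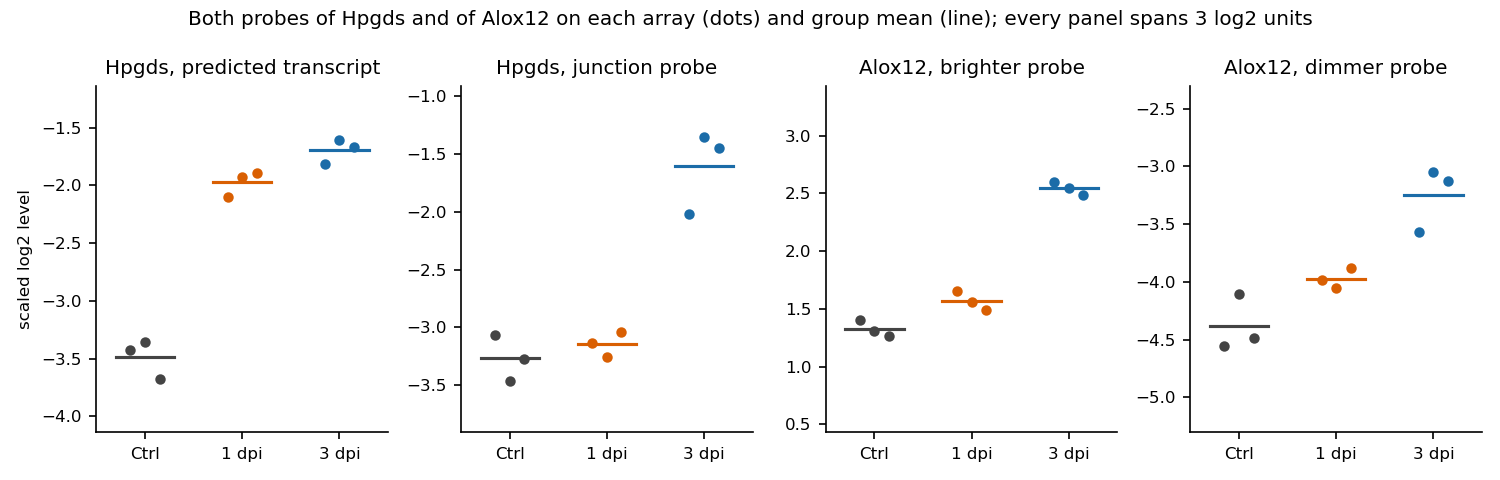
Scaled log2 level of both probes of Hpgds and of Alox12 on each array, with lines at the group means. The junction probe of Hpgds overlaps between Ctrl and 1 dpi, and the probe on the predicted transcript does not.

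Ptgs2 and Ltc4s had adjusted p under 0.05 at 1 dpi and 3 dpi without reaching 2-fold. Ptgs2, the inducible cyclooxygenase, had levels of 1.87, 1.93 and 1.91 in Ctrl, 2.42, 2.60 and 2.66 at 1 dpi, and 2.54, 2.88 and 2.79 at 3 dpi. The irradiated groups overlapped each other and lay above Ctrl. Ptgs2 differed from Ctrl 1.58-fold at 1 dpi (log2 fold change 0.66, SE 0.10, adjusted p 0.00136), and 3 dpi differed from Ctrl 1.78-fold (0.83, SE 0.10, adjusted p 0.000646). Ltc4s, which encodes the synthase of leukotriene C4, had levels of -0.92, -1.11 and -1.04 in Ctrl, -0.30, -0.36 and -0.39 at 1 dpi, and 0.11, -0.20 and -0.14 at 3 dpi, and no groups overlapped. It differed 1.59-fold at 1 dpi (0.67, SE 0.09, adjusted p 0.000738), and the difference at 3 dpi was 1.93-fold (0.95, SE 0.09, adjusted p 0.000187). Without 3 dpi replicate 2 the latter was 1.01 and was called. Relative to the median of all genes, Ptgs2 was at 0.41 and 0.72 and Ltc4s at 0.43 and 0.83. With the array median as the reference neither reached the threshold at 1 dpi, where Ptgs2 was at 0.34 (adjusted p 0.0772) and Ltc4s at 0.36 (adjusted p 0.0803). Each of these genes has a single probe on the array.

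Pla2g4a, Ptgs1 and Tbxas1, on the route from arachidonic acid to thromboxane, were not called in any comparison, and their probes differed in sign. Ptgs1, the constitutive cyclooxygenase, had levels of 2.24, 2.25 and 2.30 in Ctrl, 2.15, 2.17 and 2.13 at 1 dpi, and 2.58, 2.47 and 2.47 at 3 dpi. Its groups did not overlap, and its log2 fold change was -0.11 at 1 dpi (adjusted p 0.123) and 0.24 at 3 dpi (adjusted p 0.0148). Its dimmer probe gave the opposite sign in every comparison, with 0.09 (adjusted p 0.283), -0.16 (adjusted p 0.105) and, between 3 dpi and 1 dpi, -0.25 (adjusted p 0.0173). Tbxas1, the thromboxane synthase, had levels of 2.82, 2.67 and 2.68 in Ctrl, 2.51, 2.47 and 2.47 at 1 dpi, and 2.62, 2.62 and 2.57 at 3 dpi. Its groups did not overlap either, with -0.24 at 1 dpi (adjusted p 0.0119) and -0.12 at 3 dpi (adjusted p 0.175). The dimmer probes of Tbxas1 gave the opposite sign at 1 dpi, 0.73 (adjusted p 0.0346) and 0.72 (adjusted p 0.0513), and one of them was not well above background on Ctrl replicate 1 and 1 dpi replicates 1 and 2. Pla2g4a, the cytosolic phospholipase, was at -0.15 (adjusted p 0.0503) and 0.04 (adjusted p 0.583), with overlap between Ctrl and 3 dpi. Its dimmer probe gave 0.70 at 1 dpi (adjusted p 0.0017) and -0.88 at 3 dpi against 1 dpi (adjusted p 0.000759), opposite in sign to the brighter one. Relative to the median of all genes, the brightest probes at 1 dpi were at -0.36 for Ptgs1 (adjusted p 0.00114) and -0.40 for Pla2g4a (adjusted p 0.00063). Tbxas1 was at -0.49 on that scale. At 3 dpi the values of Ptgs1, Pla2g4a and Tbxas1 were 0.13, -0.07 and -0.24. Because their probes differed in sign, no direction is given for these 3 genes. Tbxas1 is the gene of this route with a TATA match close to its start site, in the window at chr6:38918736-38919035 (GRCm38.p6, plus strand), shown with the match in capitals.
Tbxas1 promoter window: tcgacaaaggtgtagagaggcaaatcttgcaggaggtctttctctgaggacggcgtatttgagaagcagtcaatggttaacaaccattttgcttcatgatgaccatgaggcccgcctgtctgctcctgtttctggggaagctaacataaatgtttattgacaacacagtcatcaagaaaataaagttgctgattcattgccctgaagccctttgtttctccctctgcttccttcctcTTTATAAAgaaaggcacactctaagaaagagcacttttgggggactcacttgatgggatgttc

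**Figure D3:**
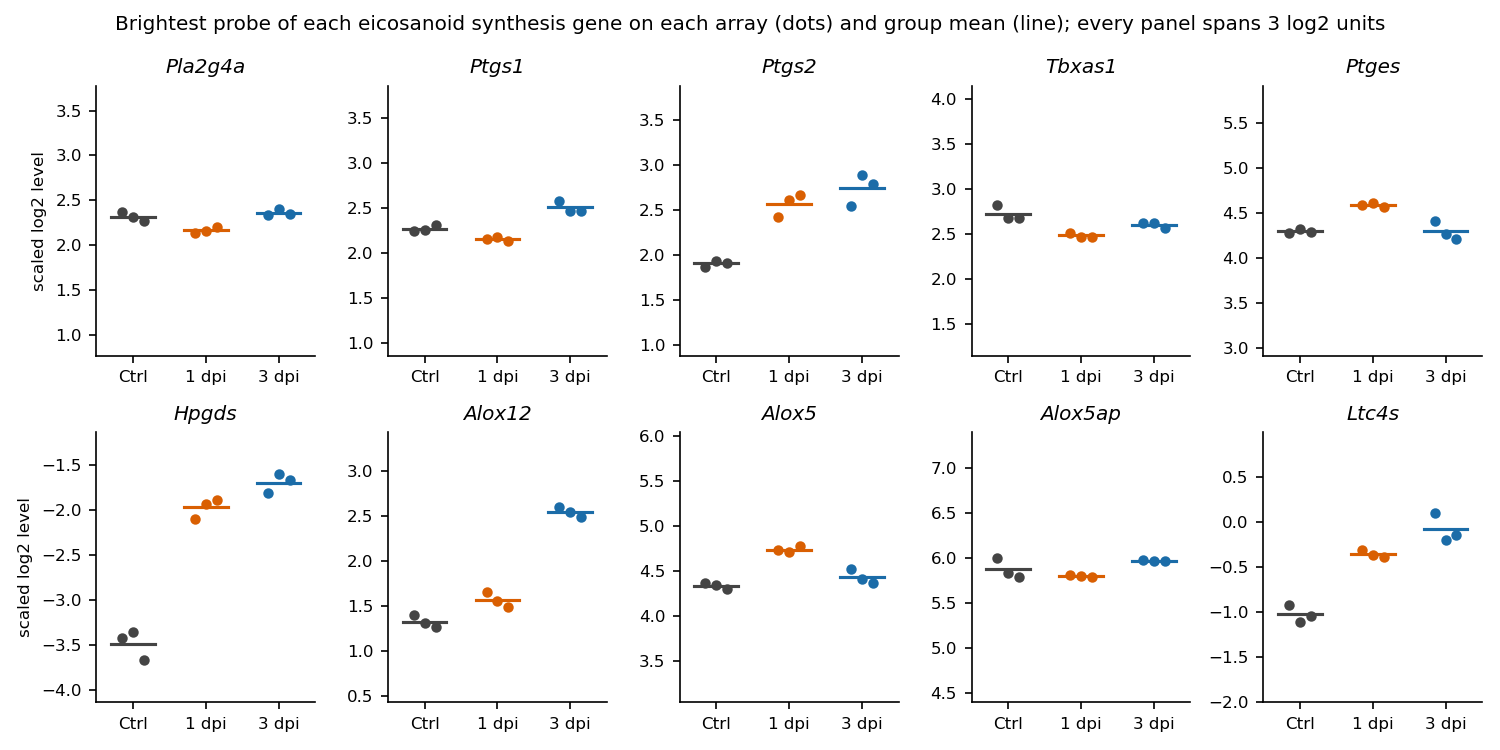
Scaled log2 level of the brightest probe of each of the 10 genes on every array, with lines at the group means and panels of equal height in log2 units. On the probe shown, Hpgds has the widest difference from Ctrl at both times, which its junction probe shows at 3 dpi and not at 1 dpi.

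Ptges, Alox5 and Alox5ap completed the list. Ptges, which makes prostaglandin E2, had a log2 fold change of 0.29 at 1 dpi (adjusted p 0.00732), -0.00097 at 3 dpi (adjusted p 0.992) and -0.29 from 1 dpi to 3 dpi (adjusted p 0.00898), and Ctrl and 3 dpi overlapped. Alox5, the 5-lipoxygenase that starts leukotriene synthesis, was at 0.40 at 1 dpi (adjusted p 0.00114), 0.10 at 3 dpi (adjusted p 0.272) and -0.30 between them (adjusted p 0.00542), and its groups did not overlap. Alox5ap, the protein that presents arachidonic acid to Alox5, was at -0.07 (adjusted p 0.374) and 0.10 (adjusted p 0.322), and overlapped with Ctrl at both times. Its other probe gave 0.40 at 1 dpi (adjusted p 0.0433), and the deposited table gave -0.49 at 1 dpi (adjusted p 0.00188) and 0.50 from 1 dpi to 3 dpi (adjusted p 0.00216), so no direction is given for Alox5ap either. Several of these values depended on the scaling. Alox5 at 1 dpi was at 0.09 (adjusted p 0.592) with the array median, 0.15 relative to the median of all genes (adjusted p 0.0668) and 0.16 in the deposited table (adjusted p 0.0543), so its difference at 1 dpi is not firm. With the array median as the reference Ptges was at -0.02 at 1 dpi, and at 3 dpi Pla2g4a was at -0.08, Alox5 at -0.03 and Alox5ap at -0.03. From 1 dpi to 3 dpi, limma gave an adjusted p under 0.05 without the 2-fold minimum for Alox12 and Ltc4s (0.27) in the higher direction and for Ptges and Alox5 in the lower, and for Pla2g4a (0.20) and Ptgs1 (0.35), whose other probes were lower. Over the 24 alternatives the adjusted p of this comparison reached 0.526 for Alox5, 0.911 for Ptges and 0.121 for Ltc4s, and 0.00169 for Alox12. The value of Ptges came from the deposited table, which holds a dimmer probe of Ptges to within 0.000466 in log2 after quantile normalization. Probe and scaling thus changed at once there. Ptgs2 was at 0.17 (adjusted p 0.213), Tbxas1 at 0.12 (adjusted p 0.151) and Alox5ap at 0.17 (adjusted p 0.0765).

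Promoter windows of 300 bases, 250 before and 50 after the start site, were available from RefSeq for 9 of 10 genes, all but Alox5ap, with 10 windows in all. Short motifs of factors that act in megakaryocytes and inflammation were searched on both strands. The window of Pla2g4a at chr1:149922390-149922689 (GRCm38.p6, minus strand) held the GATA motif TGATAA at -161 and -54 and the TATA motif TATAAA at -200, counted from the start site. That of Tbxas1 held TATAAA on both strands, at -13 and -11, in matches that overlap each other. No match was found in the windows of Ptgs1, Ptgs2, Ptges, Hpgds, Alox12, Alox5 and Ltc4s or in the other window of Pla2g4a. Over 32851 windows of all genes TGATAA was present in 9.05%, AGATAA in 11.2%, TATAAA in 13.6%, the ETS motif CCGGAAG in 8.86%, the NF-E2 and AP-1 core TGACTCA in 5.2% and the NF-kappaB motif GGGACTTTC in 0.353%, and any of them in 39.1%. A match is a stretch of sequence, and binding was not measured.

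Next, 69 further genes of eicosanoid handling were examined on 4 lists, of which 67 were tested. Pla2g4f and Ptgdr did not pass the filter. Calls were 11 higher and 1 lower at 1 dpi, 10 and 3 at 3 dpi, and 6 and 3 between 3 dpi and 1 dpi, beside 12.3% and 2.87%, 6.98% and 1.82%, and 3.97% and 4.82% of all genes, and nothing particular to these lists is drawn from them. Their median log2 fold changes were 0.14, 0.14 and 0.02, beside 0.25, 0.11 and -0.11 for all genes. After quantile normalization the calls at 1 dpi were 6 higher and 3 lower, and without Ctrl replicate 1 they were 10 higher and 2 lower. At 3 dpi they were 9 higher and 2 lower after quantile normalization, and 9 higher and 1 lower without Ctrl replicate 1. Among 13 further synthesis enzymes 2 were called higher at 1 dpi, while the 4 calls at 3 dpi were 2 in each direction. Among 23 phospholipases and related genes 2 were called higher at 1 dpi and 0 at 3 dpi, where 3 were higher and 6 lower at an unadjusted p under 0.05 in limma. The 2 called, Pla2g5 and Pla2g1b, were each well above background on 2 of 3 Ctrl arrays. Both passed the filter through the irradiated groups alone, so these calls are no independent test. Among 14 receptors 2 were called higher at 1 dpi, while 3 dpi had 2 higher and 1 lower. The higher calls at both times include Ptgfr, which passed the filter through 3 dpi alone. Among 17 genes of transport, conversion and breakdown 5 calls were higher and 1 was lower at 1 dpi, while at 3 dpi 6 were higher and 0 lower, where limma had 1 lower at an unadjusted p under 0.05.

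The genes that inactivate or carry the products held the widest differences on these lists. Hpgd encodes the dehydrogenase that inactivates prostaglandins, and its level was -0.28, -0.36 and -0.34 in Ctrl, -3.44, -3.28 and -3.13 at 1 dpi, and -0.69, -0.44 and -0.30 at 3 dpi. It was lower at 1 dpi, with a log2 fold change of -2.96 (SE 0.12, adjusted p 1.92e-06), and Ctrl and 3 dpi overlapped (-0.15, adjusted p 0.367). Slco2a1, the prostaglandin transporter, was higher at 1 dpi by 4.39 (SE 0.45, adjusted p 0.000157), on arrays at -2.87, -1.22 and -1.01 in Ctrl, 2.99, 2.57 and 2.51 at 1 dpi, and -0.55, -0.38 and -0.43 at 3 dpi. At 3 dpi it was at 1.25 against Ctrl (adjusted p 0.0689), not called except under 6 of 24 alternatives. Its probes ranged from 1.42 to 4.39 at 1 dpi, from 1.25 to 3.16 at 3 dpi, and from -3.14 to 1.74 between 1 dpi and 3 dpi. The dipeptidases Dpep1 and Dpep2 and the transferase Ggt1, which act in the breakdown of cysteinyl leukotrienes, were called higher at both times, of which only Dpep2 kept its calls under all 24 alternatives at both. Dpep1 was at 1.18 and 3.78 (SE 0.11, adjusted p 0.000107 and 3.88e-07), Dpep2 at 2.35 and 2.65 (SE 0.15, adjusted p 1.62e-05 and 8.79e-06) and Ggt1 at 1.46 and 2.26 (SE 0.10, adjusted p 2.5e-05 and 2.67e-06). For each of these 3 genes all 6 irradiated arrays lay above all 3 Ctrl arrays. Ggt5, the other transferase of this step on the list, was not called, at 0.07 (adjusted p 0.553) and 0.35 (adjusted p 0.0267). At 1 dpi Dpep1 was not called under 6 of 24 alternatives, all of them other scalings, background corrections or the deposited table (down to 0.37), and Ggt1 was not called after quantile normalization, with or without normexp, or in the deposited table (down to 0.32). At 3 dpi Ggt1 was not called with normexp (down to 0.82).

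Among receptors, Cysltr1, which binds cysteinyl leukotrienes, was at -2.53, -2.73 and -2.60 in Ctrl, -2.32, -2.29 and -2.30 at 1 dpi, and -0.75, -0.83 and -0.69 at 3 dpi. It was higher at 3 dpi by 1.87 (SE 0.07, adjusted p 1.26e-06). Ptgfr, the prostaglandin F receptor, was well above background on 1 of 3 Ctrl arrays, 1 of 3 at 1 dpi and 3 of 3 at 3 dpi, so the size of its change is uncertain. Ptgfr passed the filter through the 3 dpi arrays alone, where it is high, so its calls are no independent test. It was called higher at both times, but at 1 dpi only under 17 of 23 alternatives (down to 0.08). At 3 dpi it was called under 21 of 23, missing the 2-fold minimum with normexp (down to 0.82). Ltb4r2, a leukotriene B4 receptor, was higher at 1 dpi only, by 1.48 (SE 0.17, adjusted p 0.000314), with 0.16 at 3 dpi (adjusted p 0.516). Tbxa2r, the thromboxane receptor, was at -1.16, -1.42 and -1.38 in Ctrl, -1.19, -1.27 and -1.28 at 1 dpi, and -2.25, -2.30 and -2.44 at 3 dpi. It was lower at 3 dpi, with a log2 fold change of -1.01 (SE 0.09, adjusted p 9.9e-05), close to the 2-fold minimum, and was called under 17 of 24 alternatives. The call was lost after quantile normalization, with normexp under either scaling, in the deposited table, with slide as a block, without Ctrl replicate 1 and without 3 dpi replicate 3 (down to -0.81). Of the synthesis and conversion enzymes, Akr1c18 was at 1.85 and 1.02, Akr1b8 at 1.20 and 1.69, Prxl2b at 0.54 and 1.56, and Cbr3 at 0.78 and 1.56 at 1 dpi and 3 dpi. The 3 dpi value of Akr1c18 was called under 15 of 24 alternatives (down to 0.53), and not under any other scaling or background correction, in the deposited table, with slide as a block, without Ctrl replicate 1 or without 3 dpi replicate 1. Akr1b8 at 1 dpi was not called with the array median or relative to the median of all genes (down to 0.89). In the other direction, the synthesis enzymes Ptgds and Alox12e were called lower at 3 dpi. Ptgds was at -0.16 (adjusted p 0.128) and -1.04 (adjusted p 4.73e-05) at 1 dpi and 3 dpi. Alox12e was at -0.62 (adjusted p 0.00234) and -1.11 (adjusted p 0.00018). Without Ctrl replicate 1 the 4 lists together held 1 lower call at 3 dpi in place of 3.

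**Figure D4:**
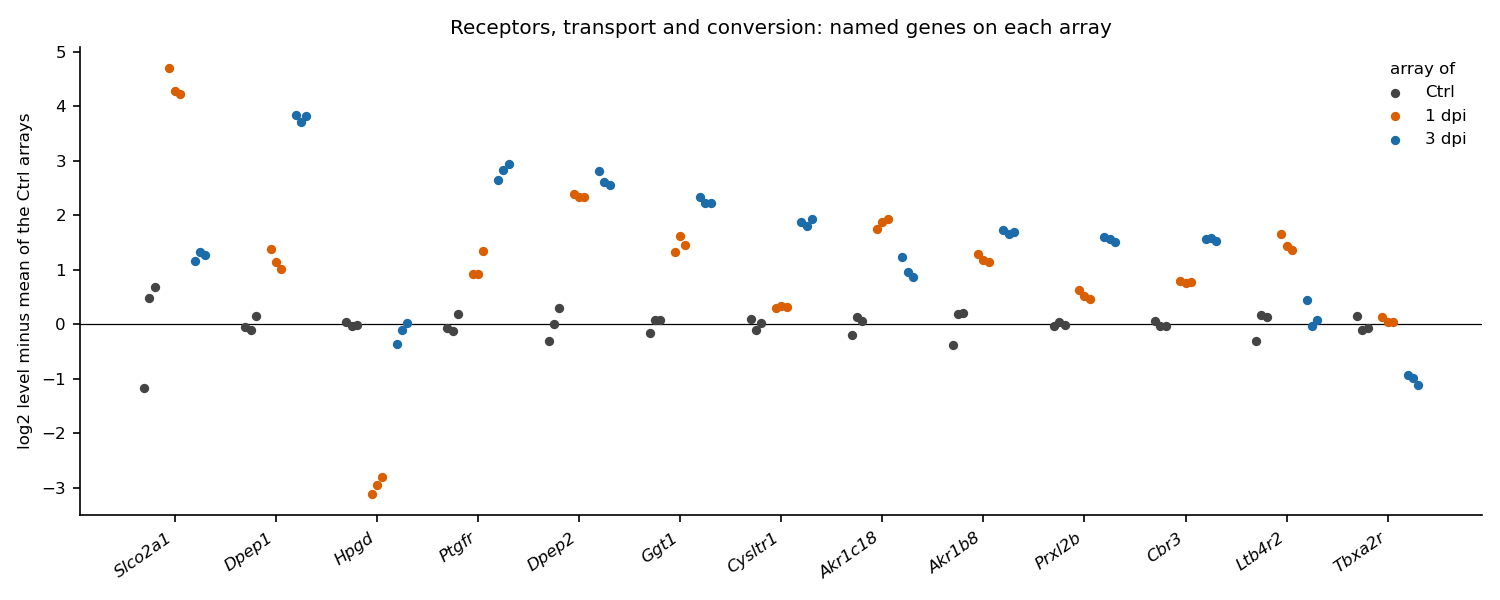
Log2 level minus the mean of the Ctrl arrays for 13 further pathway genes on every array. Slco2a1 and Hpgd move in opposite directions at 1 dpi, and Dpep1 is highest at 3 dpi.

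The labelled cell type was then checked against marker genes. All 16 megakaryocyte markers were well above background in every group, with Pf4 giving the highest signal, and limma called 0 of 16 in each comparison, while an unadjusted p under 0.05 was reached at 1 dpi by 4 in the higher and 5 in the lower direction, at 3 dpi by 7 and 1, and between the irradiated groups by 9 and 1. The marker with the highest signal is named for each list because it weighs most in the summed level, and not as the most abundant transcript, which probe signals do not give. The summed level of the megakaryocyte list, as a multiple of the 75th percentile signal, was 171, 152 and 151 in Ctrl, 161, 148 and 146 at 1 dpi, and 169, 167 and 165 at 3 dpi. Their mean scaled log2 level was 1.45, 1.30 and 1.27 in Ctrl, 1.38, 1.33 and 1.25 at 1 dpi, and 1.598, 1.597 and 1.599 at 3 dpi, so that 3 dpi lay above both other groups on this scale. Relative to the array median instead, Ctrl replicate 1 (5.25) lay above the 3 dpi arrays (5.04, 5.07 and 5.04), so that Ctrl and 3 dpi overlapped. Single calls also appeared under other settings, with 1 lower at 1 dpi and 2 higher between 3 dpi and 1 dpi with the array median, and 1 lower at 3 dpi in the deposited table. Itga2b, which encodes CD41, was at 0.69 and -0.03, and Gp5, which encodes CD42d, at -0.54 and -0.28, at 1 dpi and 3 dpi.

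Markers of other cell types were also present, and some of these cells are known to express Hpgds, Alox5 or Ltc4s. Of 16 macrophage and monocyte markers 6 were called higher at 1 dpi and 12 at 3 dpi, with Lyz2 the brightest, and Siglec1 (2.84) and Fcgr1 (2.71) changed most at 3 dpi. Their summed level was 352, 363 and 355 in Ctrl, 601, 559 and 558 at 1 dpi, and 491, 452 and 481 at 3 dpi. The bright probes decide this sum, and the mean scaled log2 level of the list averaged 1.95, 2.71 and 3.57 in Ctrl, at 1 dpi and at 3 dpi, with 7 of 16 called higher and 0 lower from 1 dpi to 3 dpi, where 13 were higher and 3 lower at an unadjusted p under 0.05 in limma. Of 12 mast cell and basophil markers 10 were tested, and at 1 dpi 5 of them were called higher and 1 lower, while 3 dpi had 3 higher and 1 lower. Prss34 was the brightest of them, and their summed level was 154, 136 and 129 in Ctrl, 388, 392 and 388 at 1 dpi, and 257, 243 and 234 at 3 dpi. Tpsab1 was well above background on 0 of 3 arrays in every group and Mrgprb2 on 1, 0 and 1 of 3 arrays, so neither was tested. Without Ctrl replicate 1 there were 2 higher calls at 3 dpi in place of 3. Kit was called lower at both times, at -1.08 and -1.32, but not at 1 dpi without Ctrl replicate 1. In the other direction, Tpsb2 (1.34 and 2.01), Mcpt4 (1.38 and 1.18) and Prss34 (2.10 and 1.17) were called higher at both times, and Fcer1a (1.14) and Mcpt8 (1.64) at 1 dpi. Mcpt4 was well above background on 2 of 3 Ctrl arrays and passed the filter through the irradiated groups alone. Its calls are therefore no independent test, and the size of its change is uncertain. Of 8 eosinophil markers, with Prg2 the brightest, limma called 0 in each comparison, and an unadjusted p under 0.05 was reached at 1 dpi by 3 in each direction, at 3 dpi by 4 in the lower direction, and between the irradiated groups by 1 higher and 4 lower. Their summed level was 705, 728 and 706 in Ctrl, 1161, 1069 and 1087 at 1 dpi, and 733, 675 and 715 at 3 dpi. The 1 dpi values of this list depended on the scaling, with a median log2 fold change of 0.0029, or -0.31 and 2 markers called lower with the array median, -0.43 after quantile normalization and -0.50 in the deposited table. Of 12 neutrophil markers 2 were called higher at 1 dpi, S100a8 (1.14) and S100a9 (1.02), and 0 at 3 dpi, where 2 were higher and 1 lower at an unadjusted p under 0.05 in limma. The 1 dpi calls depended on the processing, with 0 after quantile normalization, with the array median and in the deposited table, and 1 without Ctrl replicate 1, and the median log2 fold change of the list was 0.55, or -0.01 after quantile normalization. Mpo was the brightest, and their summed level was 1124, 1212 and 1197 in Ctrl, 2036, 1897 and 1869 at 1 dpi, and 1264, 1138 and 1200 at 3 dpi.

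Of 12 stromal markers 8 were called higher at 1 dpi and 8 at 3 dpi, with Cxcl12 the brightest. Their summed level was between 10.1 and 10.6 in Ctrl, 44.3 and 51.5 at 1 dpi, and 88.3 and 97.1 at 3 dpi, and Adipoq (4.23) and Foxc1 (4.02) changed most at 3 dpi. At an unadjusted p under 0.05 in limma, 9 stromal markers were higher and 1 lower at 1 dpi, and 8 and 1 at 3 dpi. The lower one was Pdgfrb, at -0.41 (adjusted p 0.0125) and -0.39 (adjusted p 0.0242), under the 2-fold minimum. Of 10 endothelial markers 4 and 6 were called higher, with Stab2 the brightest, and their summed level averaged 3.43, 5.76 and 9.60 in the 3 groups. At an unadjusted p under 0.05 in limma, 7 endothelial markers were higher and 1 lower at 1 dpi, and 7 and 0 at 3 dpi. The lower one was Tek, at -0.91 at 1 dpi (adjusted p 0.000404) and 0.02 at 3 dpi (adjusted p 0.914). Flt4, called at both times, was well above background on 2 of 3 arrays in Ctrl and at 1 dpi. It passed the filter through 3 dpi alone, where it is high, so its calls are no independent test. Of 10 B cell markers 9 were called lower at both times, with Cd79b the brightest and mean summed levels of 28.8, 5.80 and 5.63. Of 9 T and NK cell markers on the array 2 and 4 were called higher, with Nkg7 the brightest and mean summed levels of 31.0, 43.1 and 36.5. Their mean scaled log2 level averaged -1.86, -1.21 and -0.78. From 1 dpi to 3 dpi 3 were called higher and 0 lower, where 5 were higher and 3 lower at an unadjusted p under 0.05 in limma. At 1 dpi the T and NK cell calls went to 0 with the array median and 1 without Ctrl replicate 1, and the endothelial calls to 2 higher and 1 lower with the array median and 3 higher and 1 lower after quantile normalization. Of 10 erythroid markers 7 were called lower and 2 higher at 1 dpi, and 9 lower at 3 dpi, with Hba-a1 the brightest and mean summed levels of 93.0, 214 and 32.5. Fewer cells of a type and less RNA per cell cannot be told apart. Signal from such cells and a change within mMKs cannot be told apart on these arrays, and their part in the result was not tested.

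**Figure D5:**
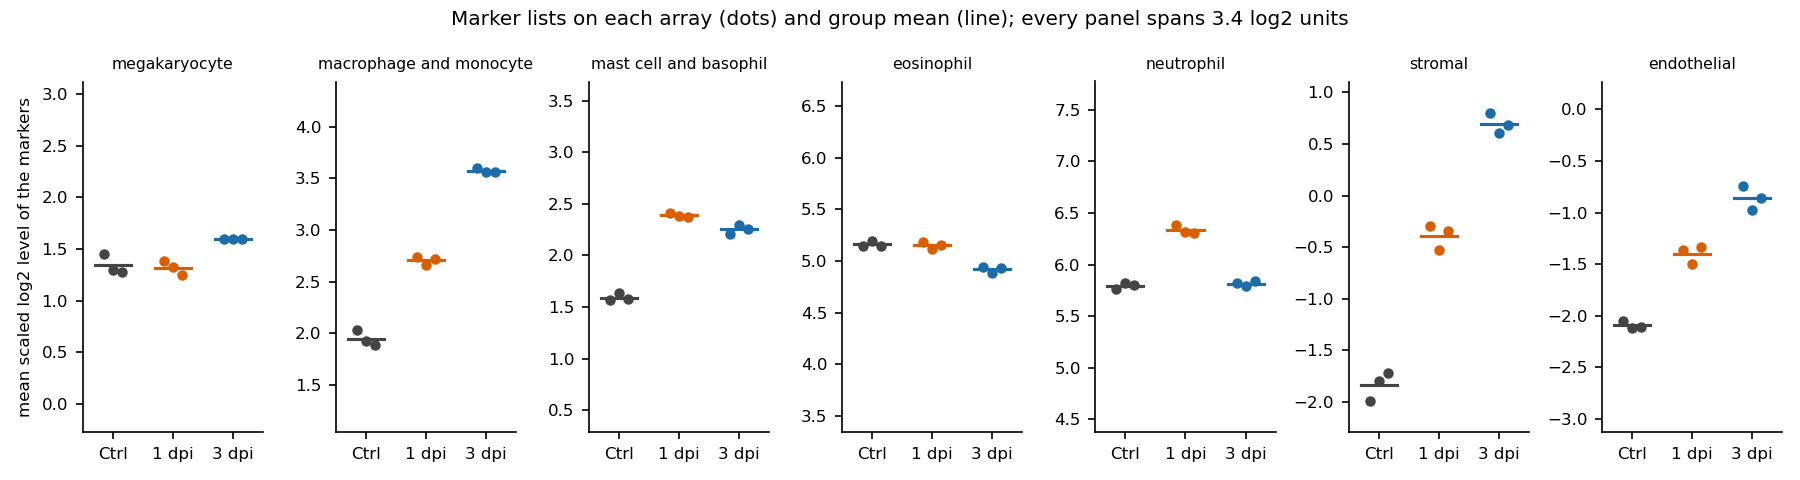
Mean scaled log2 level of 7 marker lists on every array. On this scale the macrophage and monocyte, mast cell and basophil, stromal and endothelial lists are higher at 1 dpi and 3 dpi than in Ctrl. The megakaryocyte list is higher at 3 dpi, where it overlaps with Ctrl relative to the array median.

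Finally, the genes with the most similar pattern over the 9 arrays were listed, as description without a test, since the 9 points fall into 3 groups and any gene that differs between the groups in the same order correlates. For Hpgds, on the probe of the predicted transcript, these were Msr1, a scavenger receptor of macrophages (Pearson r 0.995), a transcript without a gene name (r 0.994) and Csta3 (r 0.993), among 569 genes with r above 0.95. For Alox12 they were Spic, a transcription factor (r 0.998), Smagp (r 0.997) and Mest (r 0.997), among 418 genes. Msr1 was at 2.60 and 3.30 at 1 dpi and 3 dpi, and Spic at 0.29 and 1.38. Within the 10 genes, each on its brightest probe, the highest r over the 9 arrays was that of Hpgds with Ptgs2 (0.975). The lowest was that of Pla2g4a with Ptges (-0.886). The first rests on the predicted-transcript probe of Hpgds. Its junction probe overlapped between Ctrl and 1 dpi, where Ptgs2 lay above Ctrl.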

How the data were processed

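The files hold, per the file headers, the intensity of each spot as processed by Agilent Feature Extraction 10.7.1.1 (background-subtracted Cy3 signal, named in the submitters' notes). The methods text names Affymetrix arrays, while the files and the labelling kit are Agilent. The deposited table gives log2 values, and how the authors made them, with their scale and centring, is not stated. The median of its columns is 5.84, 5.84 and 5.83 in Ctrl, 5.80, 5.80 and 5.79 at 1 dpi, and 5.86, 5.86 and 5.87 at 3 dpi, over 27275 rows. Of 62976 spots on each array 3671 are controls, and the other 59305 gave 56605 probes. Outlier spots, as marked by the software, were dropped, at a cost of 20 probes, and no column of values was unused (0). Probes were named through RefSeq (GRCm38.p6) for 32994 and kept the array's name for 23611. The log2 signal was scaled to the array's 75th percentile, a probe was kept when all 3 arrays of at least 1 group had it well above background, and the brightest probe stood for a gene. Group means were fitted with limma 3.58.1 in R 4.3.3, with version 1.17.8 of data.table, and a gene was called at an adjusted p under 0.05 and at least 2-fold. Sequences and plots used Python 3.11.15, numpy 2.4.6 and matplotlib 3.10.9. The fit was first tried on simulated data. The genes, the 4 further pathway lists and the 10 marker lists were chosen with earlier results of these data known. Of the further pathway genes, the 12 called with the widest differences and Tbxa2r are named. Outside this rule, Ggt5, Pla2g5, Pla2g1b, Ptgds and Alox12e are named with their values known, and Pla2g4f and Ptgdr as not tested. Of each marker list the gene with the highest signal is named and, where a list is described further, the genes that changed most. Of all other genes the 3 closest in pattern to each called gene are named. The other genes and values named among the markers were chosen after their values were seen. Alternatives tried were quantile normalization, the array median, values relative to the median of all genes, normexp background correction with an offset of 50, other filters, the mean of all probes, the deposited table, an intensity trend, only the groups compared, blocks by replicate or slide, no minimum fold, the t-test of the methods, and leaving out each array.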

Additional observations from a re-analysis of the deposited data

How the results depend on the processing

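The calls of Hpgds and Alox12 at 3 dpi were kept under all 24 alternatives, with log2 fold changes from 1.25 to 1.85 and from 1.09 to 1.26 (adjusted p from 2.39e-06 to 0.00229 and from 2.23e-07 to 0.000982). Hpgds at 1 dpi was called under 21 of 24 and missed the 2-fold minimum with normexp and quantile normalization (0.92) and with the mean of all probes (0.82). It reversed to -0.15 in the deposited table, whose values for Hpgds equal those of the junction probe to within 0.000812 in log2 after quantile normalization. These 3 alternatives gave 0 genes of the 10 at 1 dpi, and dropping the 2-fold minimum gave 7 at 1 dpi, 5 at 3 dpi and 6 at 3 dpi against 1 dpi. At 3 dpi against 1 dpi 1 gene was called with the array median (Alox12, 1.17), relative to the median of all genes (Alox12, 1.08), with normexp and the 75th percentile (Alox12, 1.05) and in the deposited table (Hpgds, 1.74). Over all genes, normexp with the 75th percentile gave 2443, 1294 and 1351 called genes in the 3 comparisons, normexp with quantile normalization 1667, 1147 and 1088, and dropping the 2-fold minimum 16444, 9417 and 13126, beside 4468, 2588 and 2588. Without a filter on dim probes 4489 were called at 3 dpi against 1 dpi. Leaving out each array in turn gave 3561 (without Ctrl replicate 1) to 5367 (without Ctrl replicate 2) called genes at 1 dpi, 2348 to 2769 at 3 dpi and 2264 to 2812 at 3 dpi against 1 dpi. Of the 10 genes this called 1 to 1, 2 to 3 (Ltc4s at 1.01 without 3 dpi replicate 2) and 0 to 1 (Alox12 at 1.02 without 1 dpi replicate 1 and at 1.00 without 3 dpi replicate 3). Hpgds then ranged from 1.42 to 1.58 at 1 dpi and from 1.70 to 1.85 at 3 dpi, and Alox12 at 3 dpi from 1.19 to 1.26. Apart from the steps that remove the fold minimum or the filter, the cause of these differences was not tested. With slide as a block the counts were 3561, 2373 and 2812, those without Ctrl replicate 1.

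With a replicate block, which pairs arrays of the same number, 4273, 2499 and 2494 genes were called, and 1, 2 and 0 of the 10. Deviations of same-numbered arrays from their group means correlated across genes, which are not independent replicates, with r of -0.107, -0.0744 and -0.0355 between Ctrl and 1 dpi, 0.0301, -0.0826 and 0.0908 between Ctrl and 3 dpi, and 0.128, 0.0620 and 0.0168 between 1 dpi and 3 dpi, so the arrays were not treated as paired. The least signal over background was on Ctrl replicate 1, at 69.1% of spots.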
